A study of Rattus norvegicus with 12 samples.

Results

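Transcripts of 6 genes that are abundant in neutrophils were followed in rat lung after trauma with or without hemorrhagic shock. S100a8, S100a9, Lcn2 and Pglyrp1 encode antimicrobial proteins that neutrophils store in granules or hold at high concentration in the cytosol, Ceacam4 encodes a surface glycoprotein, and Fgr encodes a tyrosine kinase of myeloid cells. They were chosen on their measured values in all 4 groups of these data, so their differences between groups are given here as a description, with standard errors and without a test. Each gene was represented by 1 probe set, the group of short oligonucleotides that reports 1 transcript on the array, so the 6 genes are 6 of 8740 probe sets tested and 6 of 4736 genes with an unambiguous symbol.

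The animals were male Sprague-Dawley rats of 300 to 420 g, and their age was not given in the sources used here. Trauma-sham shock rats (T/SS) had a laparotomy and cannulas in a femoral artery and a jugular vein, and no blood was drawn. Trauma-hemorrhagic shock rats (T/HS) had the same surgery and were bled to a mean arterial pressure of 30 mmHg, which was held for 90 min before all shed blood was given back. The suffix LDL, for lymph duct ligation, marks sham (T/SS-LDL) and shocked (T/HS-LDL) rats whose mesenteric lymph vessels were tied off and cut first, through a midline incision. All procedures were done under anesthesia. All lungs were taken 3 h after the end of the shock or sham period, 4.5 h after its start. Per the series' design text, T/HS rats had lung injury and T/HS-LDL rats had none that could be measured. Blood of the shocked rats was drawn into heparin, which the labels do not mention for sham rats, so shock, bleeding, heparin and return of blood cannot be told apart. The material was whole lung, in which fewer cells of a type and less RNA per cell cannot be told apart.

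Neutrophils are the most abundant phagocytes of the blood and gather in the capillaries of the lung after shock, where their enzymes and oxidants can damage the vessel wall. S100A8 and S100A9 pair to form calprotectin, which binds calcium, zinc and manganese and also acts as a danger signal outside the cell. Lipocalin 2 takes up bacterial siderophores and so withholds iron from bacteria, and peptidoglycan recognition protein 1 binds the bacterial cell wall. Lipocalin 2 and the S100 proteins are also made by other cells, among them epithelial cells and monocytes, so a transcript level does not identify its source.

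Promoters of 3 members are printed because they stand for the patterns described here: S100a9 differed with shock and with ligation, Lcn2 varied most between samples of 1 sham group, and Ceacam4 had the widest separation of shocked from sham lungs. Each sequence is from RefSeq on the GRCr8 build and runs 5′ to 3′ on the strand of the gene, from 250 bases before to 50 bases after the annotated start. Capitals mark matches to 5 motifs searched on both strands.
S100a9 promoter, chr2:178490573-178490872, minus strand: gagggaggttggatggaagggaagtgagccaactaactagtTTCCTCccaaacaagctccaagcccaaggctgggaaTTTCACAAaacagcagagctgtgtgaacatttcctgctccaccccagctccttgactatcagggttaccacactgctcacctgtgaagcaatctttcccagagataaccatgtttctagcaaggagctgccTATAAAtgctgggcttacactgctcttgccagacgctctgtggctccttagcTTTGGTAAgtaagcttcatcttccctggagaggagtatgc
Lcn2 promoter, chr3:36081731-36082030, minus strand: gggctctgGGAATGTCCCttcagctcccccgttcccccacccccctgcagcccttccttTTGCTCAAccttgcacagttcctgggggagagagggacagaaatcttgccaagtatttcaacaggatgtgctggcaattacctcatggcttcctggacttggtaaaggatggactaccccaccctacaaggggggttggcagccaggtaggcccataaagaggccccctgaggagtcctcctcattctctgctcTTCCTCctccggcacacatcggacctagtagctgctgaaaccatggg
Ceacam4 promoter, chr1:89504305-89504604, plus strand: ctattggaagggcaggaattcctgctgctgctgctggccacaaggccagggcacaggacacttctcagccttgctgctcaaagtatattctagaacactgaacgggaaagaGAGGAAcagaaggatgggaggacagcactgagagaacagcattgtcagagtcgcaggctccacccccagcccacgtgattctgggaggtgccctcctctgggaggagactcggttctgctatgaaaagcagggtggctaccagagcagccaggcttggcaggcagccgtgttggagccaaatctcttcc

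The motifs are those of transcription factors and elements known from myeloid genes: C/EBP (TTNCNNAA), PU.1 (GAGGAA), STAT (TTCNNNGAA), the TATA box (TATAAA) and NF-kB, whose matches have 10 letters. The S100a9 window held 2 C/EBP matches, TTTCACAA and TTTGGTAA, 1 PU.1 match on the opposite strand and 1 TATA box that began 42 bases before the annotated start. The Lcn2 window held the C/EBP match TTGCTCAA, the PU.1 letters on the opposite strand and the NF-kB match GGAATGTCCC, and the Ceacam4 window held only a PU.1 match. Of the members not printed, Pglyrp1 had 2 PU.1 matches and 1 NF-kB match, and Fgr had 2 C/EBP matches. No match overlapped another, and the STAT letters were in none of the 5 windows. Such matches are common: 40.8% of 27457 rat promoters of this length held the C/EBP letters, 27.5% PU.1, 14.3% the TATA box, 8.68% STAT and 7.6% NF-kB. A match is a description of the sequence and was not tied to the expression values. The promoter table matched 5 of the 6 members, and S100a8 was not among them. In the rat annotation S100a8 and S100a9 are immediate neighbours on chromosome 2, with 0 genes between them, while Pglyrp1 and Ceacam4 lie on chromosome 1 with 86 protein-coding genes between them.

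Lung RNA was measured on Affymetrix RG-U34A arrays, 3 per group, and values are log2 of the deposited intensity, with a difference of 1 standing for a doubling. In each group a pair of arrays was nearly identical: the robust SD of their log2 differences was 0.00993 to 0.0548, against 0.164 to 0.232 for the other pairs of a group. Each such pair was averaged to 1 sample, which left 8 samples, 2 per group. The pair was made of replicates 2 and 3 in T/SS, and of replicates 1 and 3 elsewhere. The labels call every array a biological replicate but do not say how the animals and RNA extracts relate, so errors measure the spread between these samples. T/HS replicate 2 was the single array farthest from its group, with a robust SD of 0.232 to the other T/HS arrays. Medians of the arrays lay between 651.2 and 680.2 intensity units. At a limma adjusted p of 0.05, 0 of 8740 probe sets passed in each of the 6 comparisons, a share of 0%, with 261 to 790 probe sets at an unadjusted p under 0.05.

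All 6 members were higher in shocked than in sham lungs, with or without lymph ligation, by 1.43-fold for Fgr to 3.07-fold for Ceacam4 in the mean over both ligation states. In T/HS against T/SS, every member had both T/HS samples above both T/SS samples, where 19.2% of all probe sets did so. The median difference of the members was 1.06 on the log2 scale, against -0.01 for all probe sets, and 6 of 6 differences were above 0, against 48.4% of all. With the ligated duct the median was 0.78, 6 of 6 were above 0, against 54.1% of all, and 5 of 6 did not overlap between T/HS-LDL and T/SS-LDL, against 16.8%. Pglyrp1, Ceacam4 and Fgr had all 4 shocked samples above all 4 sham samples, against 2.49% of all probe sets. These shares describe genes that were chosen on the same values.

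**Figure D1:**
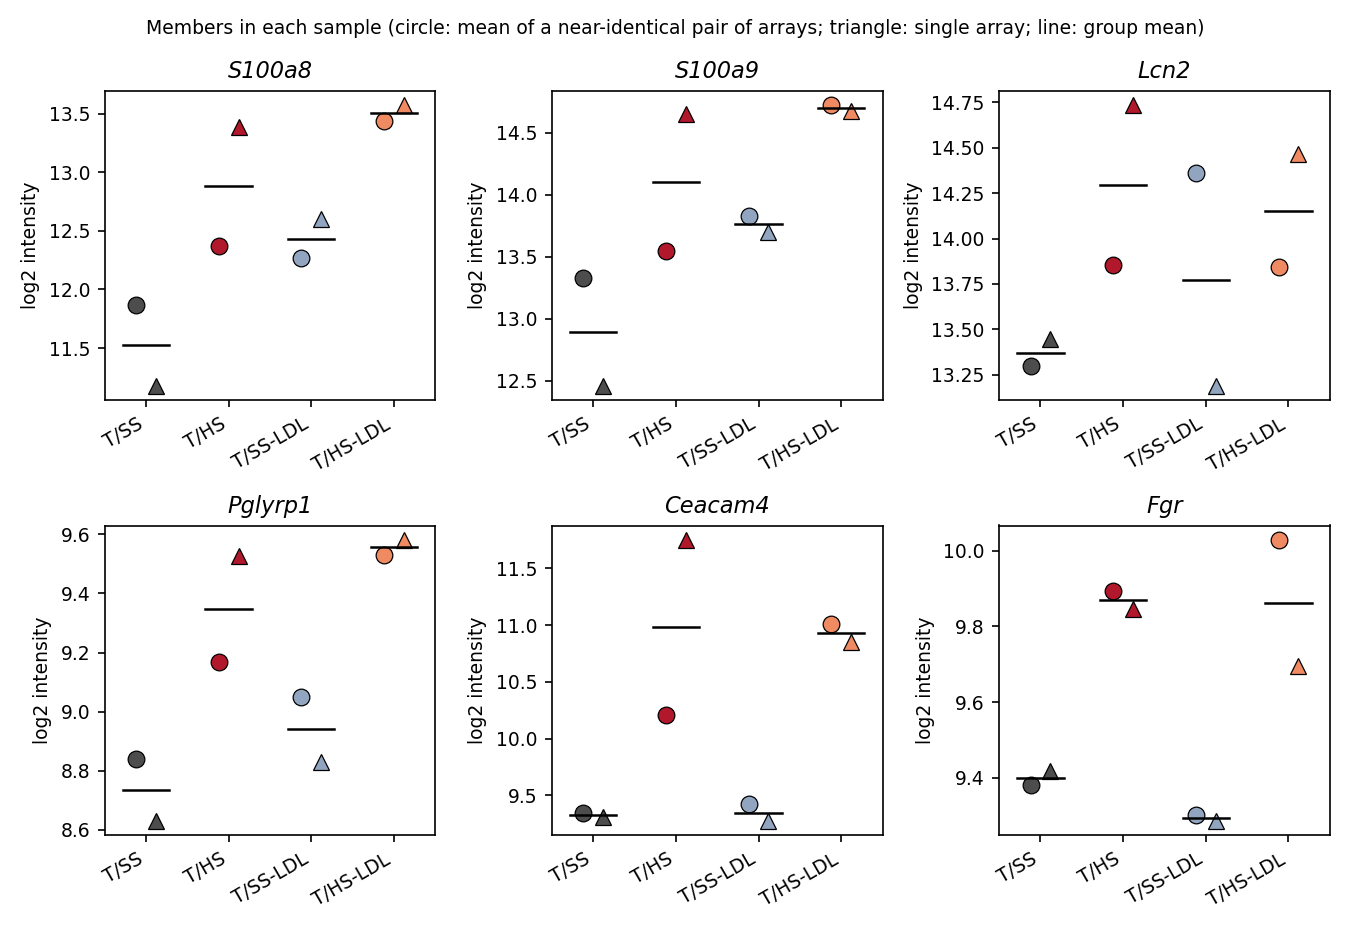
Log2 intensity of each member in the 8 samples, by group, with circles for the mean of a near-identical pair of arrays, triangles for single arrays and lines for group means. Ceacam4 lay between 9.27 and 9.42 in the 4 sham samples and between 10.21 and 11.75 in the 4 shocked samples, while the S100a8, S100a9 and Lcn2 ranges of sham and shocked samples overlap.

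S100a8 encodes the smaller subunit of calprotectin. Its log2 level in T/SS was 11.18 in replicate 1 and 11.87 in the pair. T/HS had 12.37 in the pair and 13.39 in replicate 2. T/SS-LDL had 12.27 in the pair and 12.60 in replicate 2. T/HS-LDL had 13.44 in the pair and 13.58 in replicate 2. The 4 groups thus ranked T/SS, T/SS-LDL, T/HS and T/HS-LDL by their means, and the middle groups overlapped, since the T/HS pair lay below T/SS-LDL replicate 2. S100a8 was 2.56-fold higher in T/HS than in T/SS (log2 difference 1.36 ± 0.36, SE, n = 2 samples per group). It was 2.11-fold higher in T/HS-LDL than in T/SS-LDL (1.07 ± 0.36).

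S100a9, the partner of S100a8, followed the same order of groups. The T/SS samples had 12.46 in replicate 1 and 13.33 in the pair. In T/HS the level was 13.55 in the pair and 14.65 in replicate 2. In T/SS-LDL it was 13.83 in the pair and 13.70 in replicate 2. In T/HS-LDL it was 14.73 in the pair and 14.68 in replicate 2. T/SS replicate 1 was the lowest of all samples for both S100 genes, and the T/HS pair lay below both T/SS-LDL samples for S100a9. The difference was 1.21 ± 0.39 for T/HS against T/SS, a fold of 2.31, and 0.94 ± 0.39 with ligation, a fold of 1.91. S100a9 reached up to 90.3% of the highest value on an array, in T/HS-LDL replicate 1, and from 17.3% upward, so its highest values lie near the top of the scale of these arrays.

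Lcn2 encodes lipocalin 2, stored in the specific granules. T/SS had 13.45 in replicate 1 and 13.30 in the pair. T/HS had 13.86 in the pair and 14.74 in replicate 2, both above T/SS. The T/SS-LDL samples were farther apart than those of any other group for this gene, with 14.36 in the pair and 13.19 in replicate 2. T/HS-LDL had 13.84 in the pair and 14.46 in replicate 2. The highest sham sample, the T/SS-LDL pair, therefore lay above the pairs of both shocked groups. Lcn2 was 1.90-fold higher in T/HS than in T/SS (0.92 ± 0.44). In T/HS-LDL it differed from T/SS-LDL by 0.38 ± 0.44, less than its standard error. That difference was -0.21 without T/SS-LDL replicate 2 and 0.96 without the T/SS-LDL pair, so its sign depended on which sham sample was kept. It was 0.07 without T/HS-LDL replicate 2 and 0.69 without the T/HS-LDL pair. The GAPDH signal of 3′ over 5′ probe sets, a measure of RNA integrity and of copying length, was also highest in the T/SS-LDL pair, at 1.54 on the log2 scale against 0.98 to 1.32 in the other samples, and its part in the Lcn2 value was not tested. The same ratio for beta-actin was 0.07 to 0.27. Lcn2 reached 86.9% of the highest array value, in T/HS replicate 2.

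Pglyrp1 encodes a granule protein that binds peptidoglycan. Its level in T/SS was 8.63 in replicate 1 and 8.84 in the pair. T/HS had 9.17 in the pair and 9.53 in replicate 2. T/SS-LDL had 9.05 in the pair and 8.83 in replicate 2. T/HS-LDL had 9.53 in the pair and 9.58 in replicate 2. Shocked samples were all above sham samples, with a gap of 0.12 between the T/HS pair and the T/SS-LDL pair. The shock difference was nearly the same in both ligation states, 0.61 ± 0.15 for T/HS against T/SS and 0.61 ± 0.15 with the duct ligated, each a 1.53-fold difference.

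Ceacam4 encodes a member of the carcinoembryonic antigen family of cell surface glycoproteins. Its 4 sham samples lay close together, with 9.31 in T/SS replicate 1, 9.35 in the T/SS pair, 9.42 in the T/SS-LDL pair and 9.27 in T/SS-LDL replicate 2. T/HS had 10.21 in the pair and 11.75 in replicate 2, and T/HS-LDL had 11.01 in the pair and 10.85 in replicate 2. The lowest shocked sample was 0.79 above the highest sham sample, the widest gap among the members. Ceacam4 was 3.14-fold higher in T/HS than in T/SS (1.65 ± 0.43) and 3.00-fold higher in T/HS-LDL than in T/SS-LDL (1.58 ± 0.43). Another probe set that the platform annotates to both Ceacam4 and Ceacam1 was left out, and whether the Ceacam4 probes also bind transcripts of related genes was not tested.

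Fgr encodes a Src-family kinase that acts downstream of integrins and Fc receptors. Its T/SS level was 9.42 in replicate 1 and 9.38 in the pair. T/HS had 9.89 in the pair and 9.85 in replicate 2. T/SS-LDL had 9.30 in the pair and 9.29 in replicate 2. T/HS-LDL had 10.03 in the pair and 9.70 in replicate 2. The shocked samples lay above all sham samples by at least 0.28. Fgr had the smallest shock difference of the members in T/HS against T/SS, 0.47 ± 0.125 or 1.39-fold, and 0.57 ± 0.125 or 1.48-fold with ligation. T/HS replicate 2, which was the higher T/HS sample for the other 5 members, was not higher for Fgr.

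**Figure D2:**
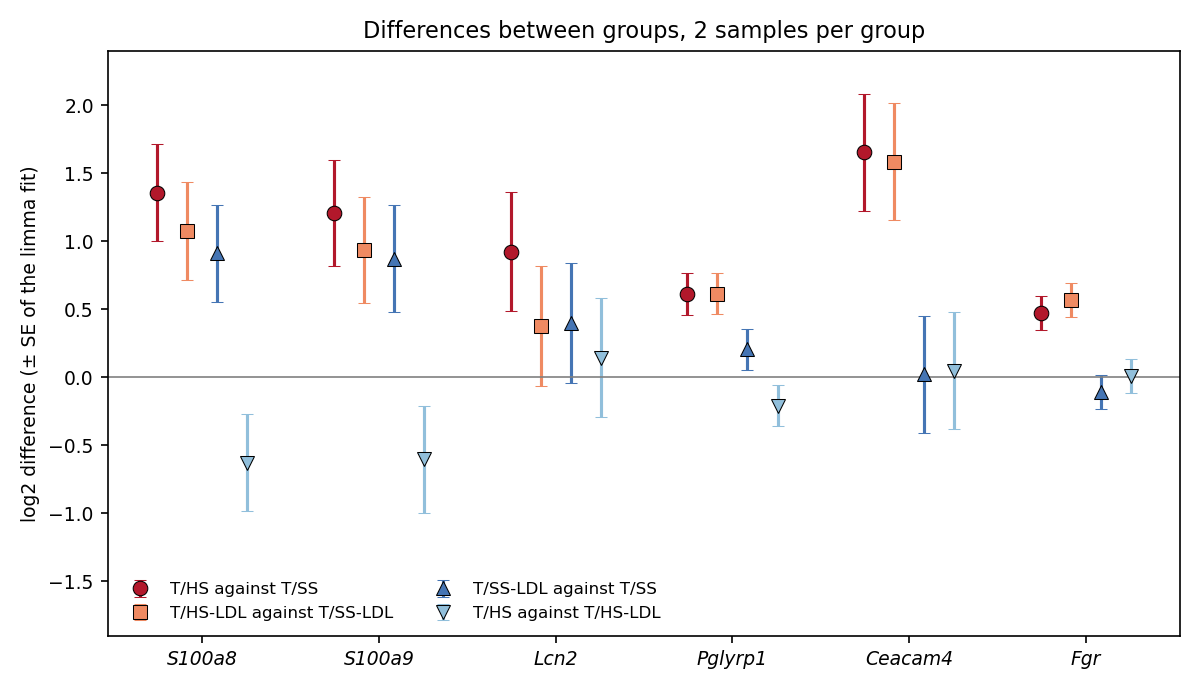
Log2 differences of the 6 members in 4 comparisons between groups, with bars of 1 standard error of the limma fit (2 samples per group). Both shock comparisons lie above 0 for every member, from 0.38 to 1.65, and the ligation comparisons of S100a8, S100a9 and Pglyrp1 lie apart from 0 by more than 1 standard error.

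S100a8 and S100a9 were higher with ligation in both the sham and the shocked state. Without shock, S100a8 was 1.88-fold (0.91 ± 0.36) and S100a9 1.83-fold (0.87 ± 0.39) higher in ligated rats, and neither gene's groups overlapped, against 16.2% of all probe sets that were higher without overlap. Fgr was lower without overlap, with a difference of -0.11 ± 0.125, against 24.5% of all probe sets. Pglyrp1 (0.20 ± 0.15), Lcn2 (0.40 ± 0.44) and Ceacam4 (0.02 ± 0.43) overlapped between the sham groups. The Lcn2 value was 0.99 without T/SS-LDL replicate 2 and -0.18 without the T/SS-LDL pair. Without T/SS replicate 1, the lowest sample for both S100 genes, S100a8 differed by 0.56 and S100a9 by 0.44, and without the T/SS pair by 1.26 and 1.31. The median of the members was 0.30, against -0.02 for all probe sets.

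No member was higher in T/HS, the group with lung injury, than in T/HS-LDL without overlap, where 18.4% of all probe sets were. S100a8 (-0.63 ± 0.36), S100a9 (-0.60 ± 0.39) and Pglyrp1 (-0.21 ± 0.15) were lower in T/HS without overlap, against 15.7% of all. Lcn2 (0.14 ± 0.44), Ceacam4 (0.05 ± 0.43) and Fgr (0.01 ± 0.125) differed by less than their standard errors. The 3 lower values rested on the T/HS pair: without it, S100a8 differed by -0.12, S100a9 by -0.05 and Pglyrp1 by -0.03, and without T/HS replicate 2 by -1.14, -1.16 and -0.39. The sign turned with the same samples for Ceacam4, at 0.82 without the pair and -0.72 without replicate 2, for Lcn2, at 0.58 and -0.30, and for Fgr, at -0.01 and 0.03. It also turned with a T/HS-LDL sample left out, for Lcn2 at -0.17 without the T/HS-LDL pair, and for Ceacam4 at -0.03 and Fgr at -0.16 without replicate 2 of T/HS-LDL. A fit with 1 T/HS sample takes the spread of that sample from the other groups.

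The interaction, the shock difference with the duct open minus that with the duct ligated, was smaller than its standard error for every member. It was 0.28 ± 0.51 for S100a8, 0.27 ± 0.55 for S100a9, 0.55 ± 0.62 for Lcn2, -0.004 ± 0.22 for Pglyrp1, 0.07 ± 0.61 for Ceacam4 and -0.10 ± 0.18 for Fgr. Leaving out 1 sample turned its sign for every member, for S100a8 from 0.79 without the T/HS pair to -0.23 without T/HS replicate 2. With 2 samples per group, these errors leave room for differences in either direction. The comparisons share groups, so their values for a member are not independent of each other.

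**Figure D3:**
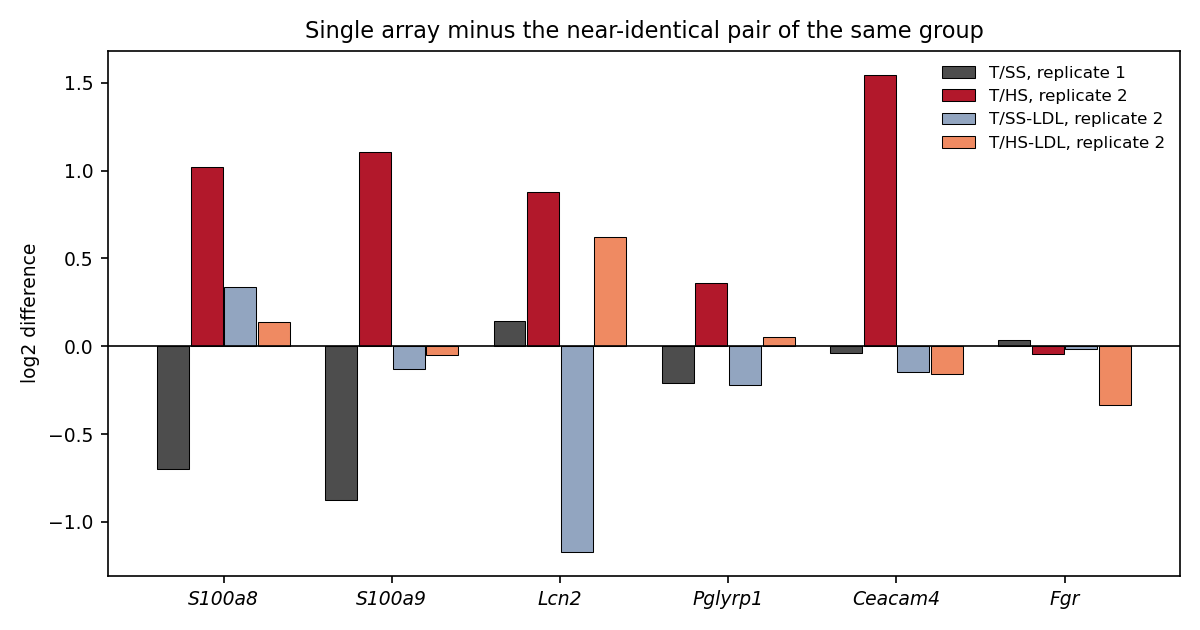
Log2 level of the single array minus that of the near-identical pair in each group, for each member. The single T/HS array is higher than its pair by 0.36 to 1.55 for 5 members and lies 0.05 below it for Fgr, and the single T/SS-LDL array is 1.17 below its pair for Lcn2.

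Samples of the same group differed by as much as the groups for some members. T/HS replicate 2 exceeded the T/HS pair by 1.55 for Ceacam4, 1.10 for S100a9, 1.02 for S100a8, 0.88 for Lcn2 and 0.36 for Pglyrp1, while Fgr differed by -0.05. Over all probe sets the median of this difference was -0.07. Within T/SS, replicate 1 was below the pair for S100a9 (-0.87), S100a8 (-0.70) and Pglyrp1 (-0.21), and the other 3 members differed by -0.04 to 0.14. In T/HS-LDL, replicate 2 differed from the pair by -0.33 for Fgr to 0.62 for Lcn2, and the Fgr difference was the widest of the 4 groups for that gene. Without T/HS replicate 2 the T/HS against T/SS difference was 0.88 for Ceacam4, 0.85 for S100a8, 0.65 for S100a9, 0.48 for Lcn2, 0.43 for Pglyrp1 and 0.49 for Fgr, all above 0. Without the T/HS pair it was 2.42 for Ceacam4, 1.87 for S100a8, 1.76 for S100a9, 1.36 for Lcn2, 0.79 for Pglyrp1 and 0.45 for Fgr. Without T/SS replicate 1, that of S100a9 was 0.77. Over both ligation states Lcn2 differed by 0.65 ± 0.31, by 0.43 without T/HS replicate 2 and by 0.36 without T/SS-LDL replicate 2.

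For S100a8, S100a9 and Lcn2, the overlap of shocked and sham samples rested on single samples. Leaving out a sample cannot end the separation of Pglyrp1, Ceacam4 and Fgr, so their part in these counts is fixed. Without the T/HS pair, S100a8 and S100a9 were also apart, 5 of 6 against 3.79% of all probe sets. Without the T/SS-LDL pair Lcn2 was, 4 of 6 against 4.38%, and without T/SS-LDL replicate 2 S100a8 was, 4 of 6 against 4.02%. The samples left out were those that set the overlap, the T/HS pair with the lowest S100 levels among shocked lungs and the T/SS-LDL samples with the highest S100a8 or Lcn2 levels among sham lungs.

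Across the 8 samples the members varied together to different degrees. Pearson's r of a member with the mean of the other 5 was 0.99 for Pglyrp1, 0.93 for Ceacam4, 0.90 for S100a9, 0.89 for S100a8, 0.71 for Fgr and 0.70 for Lcn2. These are descriptions over the same 8 samples in 4 groups, and they include the shock difference on which the members were chosen. The brighter part of the array held 3625 other probe sets with 1 symbol. Among them, the 10 genes whose levels followed the mean of the members most closely were Hp (r = 0.98), Il1r2 (0.95), Ube2g2 (0.94), Synj1 (0.94), Ccr1 (0.94), Il1b (0.93), Fcgr2b (0.93), Crispld2 (0.91), Cd14 (0.91) and Cd53 (0.91).

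Hp encodes haptoglobin, which binds free hemoglobin and is also stored in neutrophil granules. Its level was 11.18 in T/SS replicate 1, 11.40 in the T/SS pair, 12.23 in the T/HS pair and 13.69 in T/HS replicate 2. With ligation it was 11.79 in the T/SS-LDL pair, 11.32 in T/SS-LDL replicate 2, 12.95 in the T/HS-LDL pair and 13.17 in T/HS-LDL replicate 2. All shocked samples lay above all sham samples, and T/HS replicate 2 was the highest of all, as it was for Ceacam4 and Lcn2. Il1r2, the decoy receptor of interleukin 1, differed by 1.59 ± 0.31 for T/HS against T/SS and by 0.77 ± 0.31 for T/SS-LDL against T/SS, so like the S100 pair it was higher in the ligated sham group. Ccr1, a chemokine receptor of myeloid cells, differed by 1.22 ± 0.39 with shock and by 0.08 ± 0.39 with ligation alone.

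Other genes of granulocyte biology were taken from lists of primary granule proteins, specific and gelatinase granule proteins, receptors and adhesion molecules, oxidase and kinase signalling, and transcription factors. Of 115 listed genes outside the members, 49 were measured. For T/HS against T/SS, 40 of the 49 were above 0, against 48.4% of all probe sets, with a median of 0.22. Of them 24 were higher without overlap, against 19.2% of all, and 3 were lower without overlap. With the duct ligated, 39 were above 0, against 54.1% of all, with a median of 0.21, 23 were higher without overlap, against 16.8%, and 2 were lower without overlap. For these shock comparisons the share of all probe sets that were lower without overlap was not counted. Limma called 0 of the 49 in any comparison, with a smallest adjusted p of 0.225 for shock over both ligation states, where 22 had an unadjusted p under 0.05 against 9.04% of all probe sets. The lists were chosen with earlier results of these data known, so these shares are a description and no independent check of the members.

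The granule lists held few transcripts with values in the range of the members. Of 20 listed primary granule genes only 5 were measured, so their values say little about primary granule transcripts as a whole. Over both ligation states, 3 of these 5 were above 0 with a median of 0.17. The defensins Defa5 and RatNP-3b differed by 0.26 ± 0.09 and 0.17 ± 0.14, but both were dim, with mean log2 levels of 7.47 and 7.34. The brighter Srgn differed by 0.18 ± 0.22. The brightest genes of this list, Cd63 and Ctsc, differed by -0.02 ± 0.065 and -0.05 ± 0.12. Of 23 listed specific and gelatinase granule genes, 9 were measured, and 7 of them were above 0 in the same contrast with a median of 0.17. Hp differed by 1.59 ± 0.31, the collagenase Mmp8 by 1.12 ± 0.31 and the gelatinase Mmp9 by 0.75 ± 0.27. The oxidase subunit Cyba differed by 0.17 and Plaur by 0.20 ± 0.09. Lysozyme Lyz2 was at 82.8 to 100.0% of the highest array value on every array, so its difference of -0.04 ± 0.09 cannot show whether its transcript differed. In sham rats, Mmp8 differed with ligation by 1.38 ± 0.43.

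Of 14 measured receptor and adhesion genes, 13 were above 0 over both ligation states with a median of 0.28. Il1r2 differed by 1.58 ± 0.22, the endotoxin coreceptor Cd14 by 1.17 ± 0.23 and the nucleotide receptor P2ry2 by 0.62 ± 0.13. Each of the 3 had all shocked above all sham samples, against 2.49% of all probe sets. The complement receptor C5ar1 (0.22) and the cytokine receptor subunit Csf2rb (0.21) differed less.

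In the oxidase and kinase list 9 of 14 measured genes were above 0, with a median of 0.22. Alox5ap, which helps to start leukotriene synthesis, differed by 0.61 ± 0.10, the phosphatase Ptpn6 by 0.40 and the actin regulator Coro1a by 0.51, while the annexins Anxa3 (-0.40 ± 0.10) and Anxa1 (-0.13) were lower. Of 9 transcription factors 8 were above 0, with a median of 0.36. Junb (0.80 ± 0.20) and Cebpd (0.78 ± 0.15) had the largest values, followed by Irf8 (0.73 ± 0.21) and Cebpb (0.62 ± 0.21), and Runx1 differed by 0.14. Cebpb and Cebpd are members of the C/EBP family whose letters were searched in the promoters.

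Cytokines that draw or prime neutrophils were above 0 in 10 of 12 measured genes, with a median of 0.20 over both ligation states. Il1b had the largest value, 2.55 ± 0.27. The chemokine Ccl2 differed by 1.29 ± 0.65 and Ccl4 by 0.48, while Cxcl3 (-0.23), Il1a (-0.23) and Csf1 (0.10) lay near or below 0. The Ccl2 and Ccl4 values rested largely on T/HS replicate 2. There Ccl2 was at 11.84, against 7.72 to 8.57 in the other samples, and Ccl4 at 9.15, against 7.805 to 8.225. With the duct ligated, they differed with shock by 0.22 ± 0.915 and 0.14 ± 0.27.

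**Figure D4:**
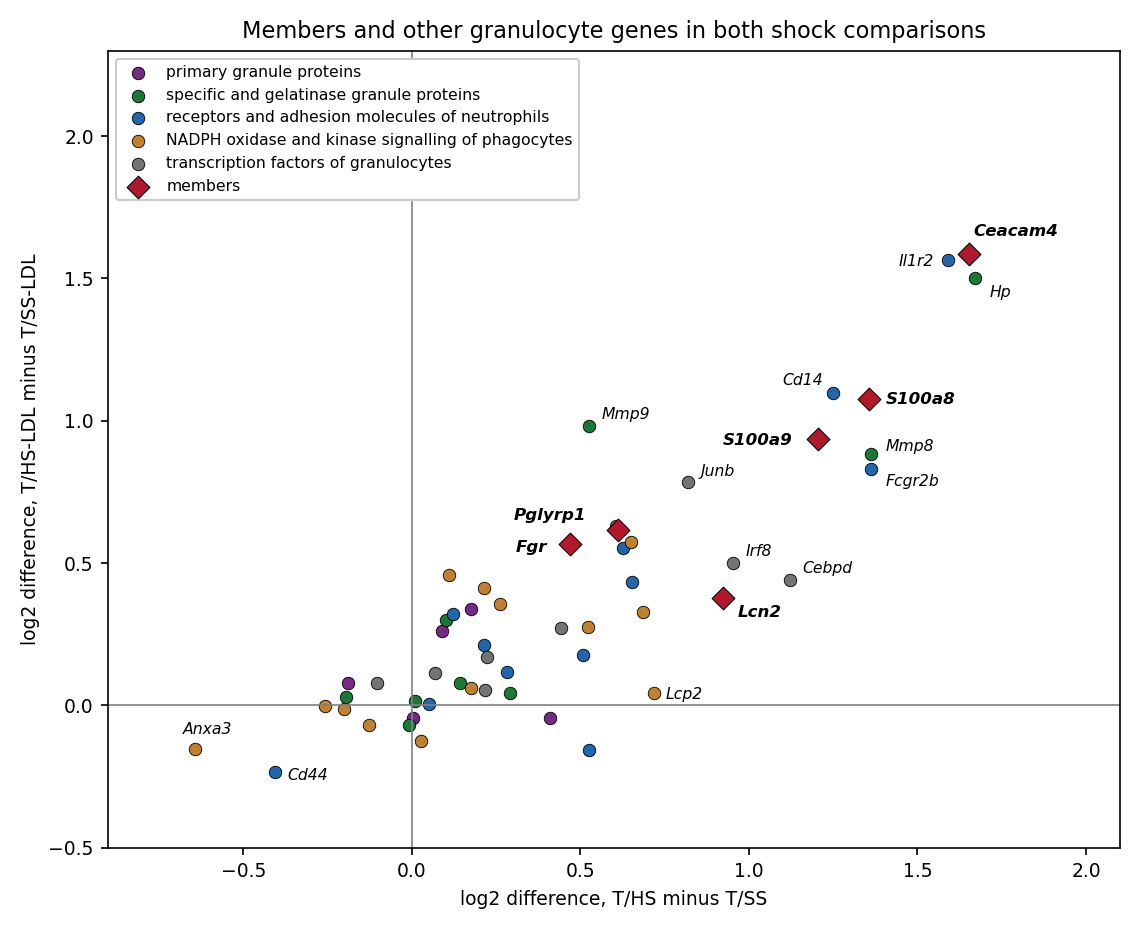
Log2 differences of members and of other granulocyte genes, with T/HS minus T/SS on the horizontal axis and T/HS-LDL minus T/SS-LDL on the vertical axis; both shock comparisons use different samples. All 6 members lie in the upper right, from 0.47 to 1.65 and from 0.38 to 1.58, and 40 and 39 of the 49 other granulocyte genes are above 0 on the respective axis.

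Relatives of the members by protein family had medians near 0. Of 11 measured S100 and lipocalin relatives the median was 0.03 over both ligation states, and 0 had shocked and sham samples apart. S100a4 differed by 0.11 ± 0.17 and S100a10 by 0.13 ± 0.17, while S100a1 was at -0.12 ± 0.07 and Obp1f at -0.14 ± 0.11. S100g had a larger but uncertain value, 0.63 ± 0.67. It differed with shock by 1.44 ± 0.95 with the duct ligated, without overlap, against 16.8% of all probe sets, and by -0.19 ± 0.95 with the duct open. Of 9 measured relatives of Fgr, Ceacam4 and Pglyrp1 the median was 0.03. The kinases Fyn (0.11), Lck (0.09) and Csk (0.04) were near 0, and Ceacam1 was lower in every shocked sample, at -0.23 ± 0.07. Ceacam1 and Ceacam4 lie on the same chromosome, with 23 protein-coding genes between them.

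Markers of other cell types were measured beside the members. The neutrophil marker list had 9 of 15 genes measured, of which 6 were the members and 3 were Cxcr2 (0.54 ± 0.14), Mmp8 and Il1r2, so it is not an independent check. Its summed intensity was 22449 and 27957 in T/SS, 38557 and 75896 in T/HS, 45373 and 34387 in T/SS-LDL, and 65392 and 73414 in T/HS-LDL. In this sum the T/SS-LDL pair lay above the T/HS pair, and Lcn2 and S100a9 gave 21016 and 14575 of its 45373. With log2 levels centred per gene and averaged, the T/HS pair was at -0.054 and the T/SS-LDL pair at -0.216. On that measure all shocked samples lay above all sham samples. Monocyte and macrophage markers, 8 of 19 measured, summed to 25311 to 26351 in T/SS, 30194 to 32335 in T/HS, 27846 to 29242 in T/SS-LDL and 29454 to 32586 in T/HS-LDL, so the lowest shocked sum lay just above the highest sham sum. As the mean of log2 levels centred per gene, the list overlapped, with -0.017 in T/HS-LDL replicate 2 and -0.011 in T/SS-LDL replicate 2. Over both ligation states 7 of the 8 were above 0 with a median of 0.08, and 2 had all shocked above all sham samples, against 2.49% of all probe sets. The part of these cells in the members' levels was not tested. Lymphocyte and NK cell markers, 12 of 18 measured, summed to 7253 to 8987 in 7 samples and 15234 in the T/HS pair. In that pair the list's Cd2 was at a log2 level of 12.19, against 6.67 to 7.23 in the other samples. Lck was at 12.02 there, against 11.13 to 11.44. The median difference of the 12 markers was 0.13 for T/HS against T/SS. Lung epithelial markers were measured for 11 of 13 genes, and 4 of them, Sftpa1, Sftpb, Sftpc and Ager, stood at 90% or more of the highest value on every array and could hardly show a difference. The 7 below that level summed to 71257 and 79306 in T/SS, 73722 and 70256 in T/HS, 79745 and 69091 in T/SS-LDL, and 71387 and 78886 in T/HS-LDL. The brightest of the 7, Scgb1a1 and Sftpd, stood at 77.8 to 83.5% and 59.4 to 84.6% of the highest array value. This sum thus rests largely on signals near the top of the scale. Pdpn, a marker of flat alveolar cells named after its values were seen, was lower in every shocked than in every sham sample (-0.45 ± 0.11 over both ligation states), and Aqp5 differed by -0.53 ± 0.27 with overlap. These were the 2 lowest values of the list. Of all 11 measured epithelial markers, 6 were above 0 in the same contrast, with a median of 0.013 and a highest value of 0.24. Red cell and platelet markers were measured for 5 of 12 genes, with Hbb at the highest value of every array. The other 4 summed to 17859 and 22465 in T/SS, 17711 and 15177 in T/HS, 25698 and 17538 in T/SS-LDL, and 14969 and 20534 in T/HS-LDL. The part of these markers in the members' levels was not tested. No marker was at 0.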

How the data were processed

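Rat lung RNA was measured on 12 single-colour Affymetrix RG-U34A arrays, 3 per group. The deposited values are linear intensity per probe set, made with RMA per the submitters' processing notes, version not given, and log2 was taken. The table had 8799 probe sets, and its 59 array controls were not tested. Arrays of a group that differed by a robust SD of log2 differences under 0.1 were averaged, giving 8 samples. The 4 groups were fitted in 1 model with limma 3.58.1 in R 4.3.3 (lmFit, eBayes, 4 residual degrees of freedom, prior SD 0.131), and p-values were two-sided and adjusted by the Benjamini-Hochberg method over 8740 probe sets, with a threshold of 0.05. The script was tested on simulated data with an SD of 0.13 for every probe set. S100a8, S100a9, Lcn2 and Ceacam4 varied more between samples of a group. That test therefore does not show whether the fit could find changes of their size. The number of arrays limits the precision. Symbols came from the platform annotation: 7006 probe sets had 1 symbol, 308 several and 1426 none.

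The members, gene lists, marker lists, motifs and alternatives were chosen with earlier results of these data known. The text names all members and, from each gene list, genes set by rank. These are the 4 genes with the highest mean log2 level and the 3 with the smallest p for shock over both ligation states. The text also names the 10 other genes closest to the mean of the members by Pearson's r, among probe sets with 1 symbol and a mean level above the median. Genes named outside these rules were chosen after their values were seen. Groups do not overlap where every sample of 1 lies above every sample of the other. A gene of a list was represented by its probe set with the highest mean. Tool settings tried as alternatives were 12 separate arrays, a replicate block, a random block, quantile normalization, median centring, a filter on dim probe sets and leaving out each sample.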

Additional observations from a re-analysis of the deposited data

How the results depend on the processing

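The 8-sample fit called 0 probe sets in all 6 comparisons, and so did quantile normalization, median centring and the filter on dim probe sets. With 12 arrays as separate samples, which counts near-identical arrays as independent, calls were 629 for T/HS against T/SS, 127 for the shock comparison with ligation, 372 for T/HS against T/HS-LDL, 141 for T/SS-LDL against T/SS, 733 for shock over both ligation states and 1 for the interaction. With the replicate block they were 456, 47, 130, 21, 570 and 1 in the same order, but the numbers were not shown to pair the samples, since 3 of 18 pairings correlated over 0.1 (r -0.166 to 0.189). With the sample as a random block, 25 were called for T/HS against T/SS and 58 for shock over both, and 0 in the others. Leaving out 1 sample gave 0 to 139, 0 to 2, 0 to 66, 0 to 2, 0 to 108 and 0 to 27 in that order. The largest counts of shock with the duct open, of T/HS against T/HS-LDL, of shock over both and of the interaction came without the T/HS pair, and without T/HS replicate 2 they were 5, 4, 10 and 1. A group with 1 sample left is assumed to vary like the others. Of the members' values, 36 moved by more than the spread of the samples within groups when 1 sample of the comparison was left out and 156 did not, while 216 values under the other settings all stayed within it. The cause of these differences was not tested. Precision is limited by 2 samples per group, and for S100a9 and Lcn2 by levels near the top of the scale.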

Other observations

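S100g, which encodes a calcium-binding relative of the members, differed widely between samples of a group. Its log2 level was 10.27 in T/SS replicate 1 and 12.67 in the T/SS pair, 12.34 in the T/HS pair and 10.22 in T/HS replicate 2, 11.28 in the T/SS-LDL pair and 10.39 in T/SS-LDL replicate 2, and 11.70 in the T/HS-LDL pair and 12.86 in T/HS-LDL replicate 2. A further S100g probe set had the same order of samples within each group. Cd2, a surface protein of T cells chosen after its values were seen, was at 12.19 in the T/HS pair and between 6.67 and 7.23 in the other 7 samples.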
